A study of Mus musculus with 18 samples.

Results

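The alpha-defensins and the other antimicrobial genes of Paneth cells were followed through sorted, non-epithelial cells of the mouse small intestine. The genes were chosen by symbol: the 18 symbols that start with Defa, and Lyz1, Ang4, Mmp7, Itln1, Reg3g, Pla2g2a and Dmbt1. They made 25 of the 23238 gene symbols counted. RNA was measured in 18 libraries from adult C57BL/6J mice with the QuantSeq kit, a method that sequences transcripts from their 3′ end. Intestinal stromal cells (IntSCs) were sorted as tdTomato+ cells, and endothelial cells of the lacteals, which drain fat from the villi (lymphatic endothelial cells, LECs), by CD31 and podoplanin. WT mice carried the labelled genotype PDGFRb+-CreERT2-Tomato+, a tamoxifen-inducible Cre under the Pdgfrb promoter with a tdTomato reporter. The KO mice carried in addition Lats1 f/f and Lats2 f/f, so that tamoxifen deletes both genes in PDGFRb+ cells (fibroblasts, pericytes and some smooth muscle cells), and the LECs were not themselves targeted. There were 6 WT IntSC, 5 KO IntSC, 4 WT LEC and 3 KO LEC libraries. The epithelium had been stripped with EDTA and CD45+ and EpCAM+ cells depleted on beads before the sort, and the purity of the sorted cells was not measured per the study's methods. The study's legends describe several mice per group, in numbers that match the libraries, pooled from several experiments. The labels tie no library to a mouse or an experiment, so p-values measure the spread between libraries.

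Paneth cells sit at the base of the small intestinal crypts and release granules of antimicrobial proteins into the lumen. Alpha-defensins are short, positively charged peptides held by disulfide bonds between cysteines, and they kill bacteria by disrupting their membranes. Mouse alpha-defensins are made as precursors that Mmp7, matrilysin, cuts into the active form. Lyz1 is the lysozyme of Paneth cells and cleaves the bacterial cell wall, Ang4 is an antimicrobial ribonuclease, and Itln1 is a lectin that binds microbial sugars. Reg3g is a lectin that kills Gram-positive bacteria and is made by several epithelial cell types, Dmbt1 is a scavenger receptor glycoprotein that binds bacteria, and Pla2g2a is a secreted phospholipase.

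The last 105 coding bases of the Defa genes are shown because they hold the cysteines of the mature peptide and because they show which symbols could share reads. They run 5′ to 3′ up to the stop codon, which is left out, and capitals mark the in-frame TGC and TGT codons for cysteine. They were read from the GENCODE vM21 transcripts (GRCm38).
Defa2: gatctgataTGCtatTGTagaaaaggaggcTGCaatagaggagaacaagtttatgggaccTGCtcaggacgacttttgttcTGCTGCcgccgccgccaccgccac
Defa21: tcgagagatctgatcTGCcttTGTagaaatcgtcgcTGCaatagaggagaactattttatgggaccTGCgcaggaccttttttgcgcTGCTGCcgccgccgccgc
Defa22: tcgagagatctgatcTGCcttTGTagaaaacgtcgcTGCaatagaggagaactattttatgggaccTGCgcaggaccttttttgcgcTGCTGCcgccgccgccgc
Defa3: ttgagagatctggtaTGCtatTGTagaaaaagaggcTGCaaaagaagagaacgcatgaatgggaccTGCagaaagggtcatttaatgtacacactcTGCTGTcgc
Defa23: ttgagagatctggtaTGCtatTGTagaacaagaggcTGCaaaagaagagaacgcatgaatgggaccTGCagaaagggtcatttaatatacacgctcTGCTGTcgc
Defa24: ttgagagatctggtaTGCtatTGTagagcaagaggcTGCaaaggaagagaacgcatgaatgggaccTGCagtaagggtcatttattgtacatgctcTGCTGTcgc
Defa5: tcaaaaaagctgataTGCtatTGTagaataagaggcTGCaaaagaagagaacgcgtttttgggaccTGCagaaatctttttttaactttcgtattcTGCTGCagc
Each of these stretches held 6 cysteine codons in 35. Defa20 had the same stretch as Defa2, and Defa17 the same as Defa3, with 0 differing bases in each pair. Defa21 and Defa22 differed at 1 base, T30A, and Defa17 and Defa23 at 3 bases, A29C, G87A and A93G (positions counted from 1 at the 5′ end of the stretch, the first-named gene's base first).

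Over the whole transcript, Defa2 and Defa20 were 99.1% identical, Defa21 and Defa22 99.3%, and Defa3 and Defa17 96.6%. In the last 300 bases, where 3′ reads start, 91.2% of the 50-base words of Defa2 were also found in another of the 25 genes. That share was 88.8% for Defa3 and Defa17, 64.5% for Defa21, 2.39% for Defa24 and 1.59% for Defa5, and 0% for each of the 7 genes outside the family. How the authors counted reads that fit several copies was not stated. The counts of Defa2 and Defa20, of Defa21 and Defa22, and of Defa3 and Defa17 are therefore uncertain as single genes, and the summed Defa count and the 7 other genes are given apart from them. The 14 Defa symbols that matched the annotation all lay on chromosome 8 (GRCm38). Defa21 was at 21025545-21026516, Defa2 at 21378515-21379495, Defa20 at 21509258-21510237 and Defa24 at 21734494-21735471, each with 2 exons on the plus strand. The 7 other genes each lay on a chromosome of its own. Lyz1 was on chromosome 10 (117287797-117292868), Dmbt1 on 7 (131032053-131121630), Reg3g on 6 (78466269-78468872), Itln1 on 1 (171518122-171535294), Mmp7 on 9 (7692090-7699585), Ang4 on 14 (51763878-51773590) and Pla2g2a on 4 (138831857-138835186).

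The WT IntSC libraries held between 5361250 and 7971443 reads, the KO IntSC libraries 6485735 to 8095271, the WT LEC libraries 7464241 to 10549233 and the KO LEC libraries 6900493 to 8914526. The sorted identities were seen in the counts: a list of 10 stromal markers summed to 7914 CPM or more in every IntSC library and to 2789 CPM or less in every LEC library, and a list of 11 lymphatic endothelial markers to 10336 CPM or more in every LEC library and 800 CPM or less in every IntSC library. CPM here are read counts brought to a common library size with TMM factors. Lats1 had a median of 19.8 CPM in WT IntSCs (0 to 29.9) and 15.8 CPM in KO IntSCs (12.5 to 21.6). Lats2 had a median of 67.3 CPM in WT IntSCs (40.8 to 112) and 119 CPM in KO IntSCs (78.4 to 133), and the genotypes overlapped for both. A 3′ read can lie outside the deleted part, so these counts do not check the labels, and KO below means the libraries labelled KO.

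Of the 25 genes, 22 had at least 1 read in some library. Defa-ps12, Defa-ps13 and Pla2g2a, which the annotation lists as a polymorphic pseudogene, had none. The genes took between 0.000328% (95% Wilson interval 0.000235% to 0.000458%) and 0.014% (0.013% to 0.015%) of the reads of a WT library. In a KO library they took between 0.0126% (0.0119% to 0.0134%) and 0.151% (0.149% to 0.154%). These intervals cover counting error only. In bulk samples, a change in the number of cells of a type and a change in the RNA of each cell cannot be told apart. A value listed at 0 allows up to the level of 3 reads, which was between 0.281 and 0.621 CPM depending on the library.

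The summed Defa count was higher in every KO library than in every WT library of the same cell type. In WT IntSC libraries 1 to 6 it was 19.9, 46.3, 7.54, 6.85, 19.2 and 149 CPM, and in KO IntSC libraries 1 to 5 it was 554, 397, 350, 690 and 413 CPM. In the 4 WT LEC libraries it was 48.9, 14.3, 47.9 and 3.18 CPM, against 1215, 103 and 1329 CPM in KO LEC libraries 1 to 3. The library closest to the other genotype was WT IntSC 6 in IntSCs and KO LEC 2 in LECs. With the 18 Defa symbols summed to 1 before the fit, the log2 fold change of KO over WT was 3.53 ± 0.82 (SE) in IntSCs and 4.97 ± 1.12 (SE) in LECs.

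The 7 other genes, which share no 50-base word with any Defa transcript, were split by genotype as well. Their sum was 2.54, 4.41, 0.539, 1.67, 0.909 and 6.21 CPM in WT IntSC libraries 1 to 6 and 55.0, 52.2, 71.5, 56.9 and 169 CPM in KO IntSC libraries 1 to 5. In LECs the same sum was 4.09, 0.738, 0.0935 and 0.199 CPM in the 4 WT libraries and 73.1, 19.998 and 122 CPM in KO libraries 1 to 3. Neither cell type had an overlap of genotypes. The libraries fell into a part with Xist above 100 CPM (7 of 18) and a part below it, and the sexes are not in the labels. Since the genotypes did not overlap in either sum, they could not overlap within a part, and the split adds no support. Among the IntSCs above that level, summed Defa was 19.9 to 46.3 CPM in WT and 397 to 554 CPM in KO. Among those below it, the ranges were 6.85 to 149 CPM in WT and 350 to 690 CPM in KO.

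**Figure D1:**
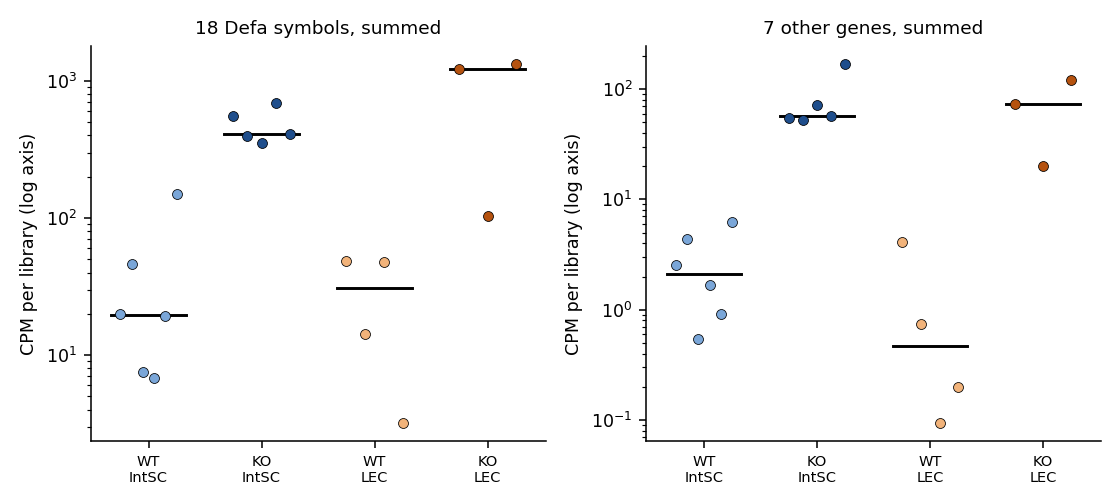
Summed CPM of the 18 Defa symbols (left) and of the 7 other genes (right) in each library, on log axes; each point is 1 library, placed by group, and the bar is the group median. KO IntSCs sat between 350 and 690 CPM of Defa, above all 6 WT libraries, and KO LEC 2 (103 CPM) lay far below the other KO LEC libraries.

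The genes were chosen with the KO against WT contrasts of IntSCs and LECs known. The values of these contrasts are therefore a description, with no p-value, and the counts of genes past the threshold (an adjusted p under 0.05 in edgeR's quasi-likelihood test over all genes) support nothing by themselves. In IntSCs 16 of the 25 genes had enough reads to be tested, and all 16 had a log2 fold change above 0, from 2.72 to 8.18. Of the 25, 10 passed the threshold, all higher in KO (13 by DESeq2, and 3, Defa21, Defa24 and Defa5, with all 4 groups in one fit), where 1.47% of the 12421 genes tested passed it and 0.853% passed it as higher. The median log2 fold change of the 16 was 3.87, and that of all genes tested was 0.0026. A gene near 0 in WT was tested only because of its level in KO, so these counts and medians do not describe all 25. Every KO library lay above every WT library for 13 of the 25, 12 of them among the 16, against 1.63% of all genes tested.

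Defa6 took more reads than any other Defa symbol (not divided by length, since each transcript is read at its 3′ end), with a mean of 81.3 CPM over the 18 libraries. In WT IntSC libraries 1 to 6 it was 2.99, 0.339, 0.808, 2.84, 5.84 and 49.7 CPM, and in KO IntSC libraries 157, 92.1, 99.1, 177 and 151 CPM. The genotypes did not overlap, and WT IntSC 6 stood far above the other WT libraries. Its log2 fold change of 3.72 ± 1.08 (SE) did not pass the threshold. Without WT IntSC 6 it was past it, and 14 of the 25 genes were called in place of 10.

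Defa24 and Defa5 shared few 50-base words with the other members. Defa24 was 1.49, 0.17, 0.269, 0, 1.56 and 3.52 CPM in WT and 65.3, 29.3, 38.7, 85.3 and 60.2 CPM in KO, a log2 fold change of 5.59 ± 0.68 (SE). Defa5 was at 0 in 4 of 6 WT libraries, with 0.149 and 0.389 CPM in the others, and 10.6, 11.0, 6.78, 19.8 and 4.90 CPM in KO. Its log2 fold change was 6.53 ± 1.25 (SE). In both genes every KO library lay above every WT library.

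Defa2 and Defa20 had nearly equal values. Defa2 was 2.39, 10.01, 2.02, 0.334, 0.909 and 8.69 CPM in WT and 45.4, 39.6, 30.1, 75.2 and 5.28 CPM in KO, and Defa20 was 2.39, 10.7, 2.69, 0.167, 1.69 and 9.93 CPM in WT and 44.4, 39.6, 27.6, 70.8 and 4.38 CPM in KO. In both, KO IntSC 5 fell within the WT range and the other 4 KO libraries lay above it. Their log2 fold changes were 3.26 ± 0.73 and 3.01 ± 0.73 (SE). The ratio of Defa2 to Defa20 reads ran from 1.0 to 1.21 over the 5 KO IntSC libraries, so the symbols carried nearly the same number in each.

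Defa21 was 1.05, 1.36, 0.404, 0, 0.519 and 1.03 CPM in WT and 42.4, 38.4, 13.2, 48.0 and 9.41 CPM in KO, a log2 fold change of 5.35 ± 0.72 (SE). Defa22 was 2.09, 1.19, 0.404, 0, 6.62 and 0.828 CPM in WT and 53.0, 45.1, 15.5, 30.9 and 10.2 CPM in KO, a log2 fold change of 4.03 ± 0.79 (SE). For both genes the KO libraries with the least were 3 and 5. Defa17 was 0.896, 10.3, 0.135, 0.167, 0.779 and 27.1 CPM in WT and 41.9, 34.1, 34.6, 53.7 and 62.9 CPM in KO, with a log2 fold change of 2.79 ± 1.07 (SE) that did not pass the threshold.

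Among the other Defa symbols were Defa3, Defa23 and Defa-rs7, tested and not past the threshold with log2 fold changes from 2.72 to 3.15, and Defa4, Defa25, Defa26 and Defa-ps1, whose highest library of any group was 11.9 CPM and which were not tested in IntSCs.

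Among the genes outside the family, Lyz1 was the most even. It was 0.149, 0, 0, 0, 0.909 and 0.207 CPM in WT IntSC libraries 1 to 6 and 20.6, 16.9, 22.1, 20.4 and 23.1 CPM in KO libraries 1 to 5, a mean of 20.6 ± 2.35 CPM (SD, n = 5). The log2 fold change, KO over WT, was 6.44 ± 0.93 (SE).

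Dmbt1 had 2 reads in WT IntSC 1 and none in the other 5 WT libraries, and was 8.75, 12.9, 15.0, 9.90 and 53.9 CPM in KO. The ratio of the pooled CPM was 393 (95% counting interval 108 to 3251). Reg3g was 2.09 CPM in WT IntSC 1, 0.269 CPM in WT IntSC 3 and 0 in the other 4, and 17.0, 14.9, 24.5, 11.0 and 59.7 CPM in KO, a log2 fold change of 5.91 ± 1.03 (SE). For both genes KO IntSC 5 was the highest library by a wide margin.

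Itln1 was 0, 4.41, 0.269, 1.67, 0 and 5.79 CPM in WT IntSCs and 7.83, 6.98, 8.68, 15.5 and 30.4 CPM in KO IntSCs. The genotypes did not overlap, the gap between the nearest libraries was small, and the log2 fold change of 2.77 ± 1.07 (SE) did not pass the threshold. Ang4 and Mmp7 had too few reads to be tested in IntSCs. Ang4 had 1 read in WT, in library 6, and 16 in KO, in libraries 2, 3 and 5 (ratio of the pooled CPM 16.3, 95% counting interval 2.53 to 683). Mmp7 had no read in WT and 19 in KO, spread over libraries 1, 3, 4 and 5, at least 6.45-fold higher against a floor of 3 reads over the WT group.

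**Figure D2:**
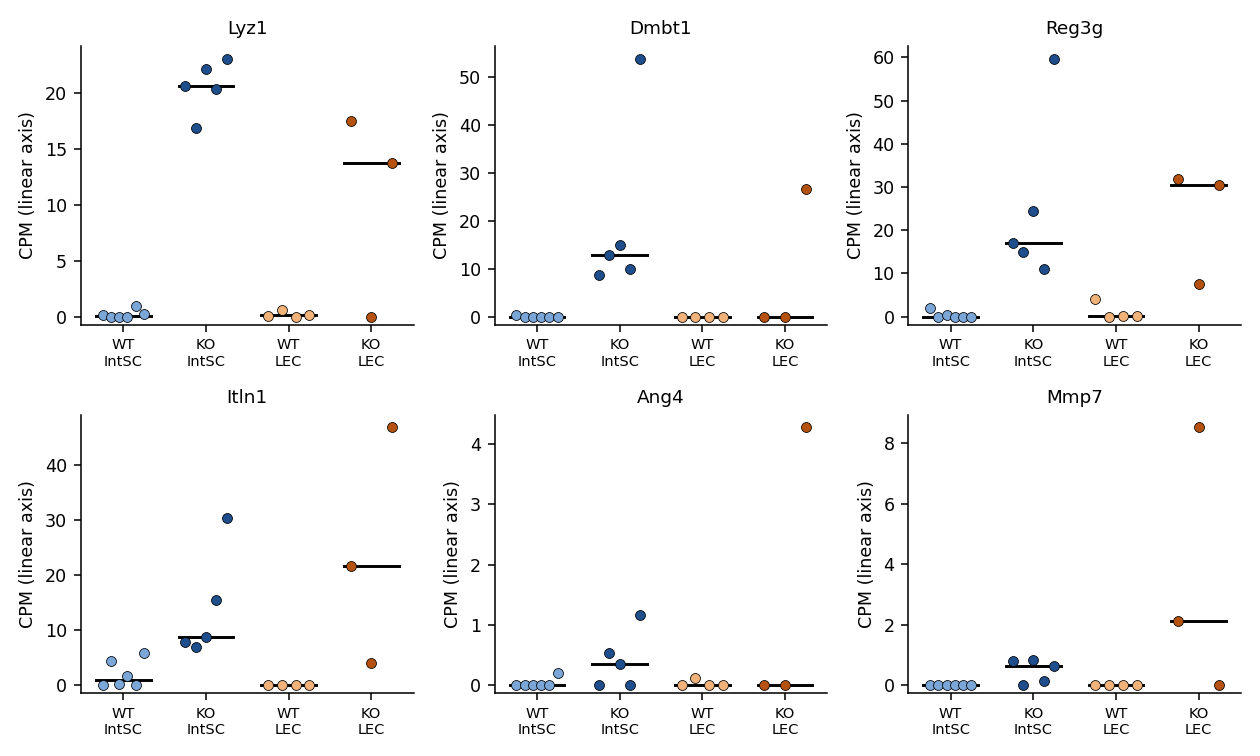
CPM of 6 genes outside the Defa family in each library, on linear axes; each point is 1 library and the bar is the group median. Lyz1 was between 16.9 and 23.1 CPM in all 5 KO IntSC libraries, whereas the KO LEC points of Lyz1, Dmbt1, Ang4 and Mmp7 include libraries at 0.

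In LECs 12 of the 25 genes had enough reads to be tested, all 12 had a log2 fold change above 0, and 1 passed the threshold by edgeR, Defa6. DESeq2 called 8 (Defa2, Defa5, Defa6, Defa20, Defa21, Defa22, Defa24 and Itln1), and all 4 groups in one fit called 9 (Defa2, Defa5, Defa6, Defa20, Defa21, Defa23, Defa24, Dmbt1 and Itln1). Of the 10639 genes tested, 0.0658% passed it, and 0.0282% passed it as higher. The median log2 fold change of the 12 was 4.64, and that of all genes tested was -0.03. The median of the 12 was also 4.64 with Itln1, which had no read in WT, at its lower bound. Every KO library lay above every WT library for 5 of the 25 (Defa5, Defa6, Defa24, Itln1 and Reg3g), against 4.01% of all genes tested.

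Defa6 in WT LEC libraries 1 to 4 was 8.56, 0.861, 8.70 and 0.795 CPM, against 273, 43.5 and 388 CPM in KO LEC libraries 1 to 3, a log2 fold change of 5.64 ± 0.92 (SE). Leaving out any single LEC library other than KO LEC 2 took the number called from 1 to 0, and leaving out KO LEC 2 took it to 3 (Defa2, Defa6 and Defa20). Defa24 was 8.56, 0.861, 8.32 and 0.398 CPM in WT and 120, 17.8 and 217 CPM in KO, a log2 fold change of 4.72 ± 1.05 (SE). Defa5 was 0.19, 0.369, 1.40 and 0.199 CPM in WT and 26.8, 5.46 and 36.3 CPM in KO, a log2 fold change of 5.38 ± 1.88 (SE). In all 3 genes KO LEC 2 was the lowest KO library and still above the highest WT library.

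Defa2 was 2.95, 0.615, 3.18 and 0 CPM in WT LECs and 170, 1.31 and 140 CPM in KO LECs, a log2 fold change of 5.94 ± 1.40 (SE). Defa20 was 2.57, 0.615, 2.81 and 0.398 CPM in WT and 162, 1.20 and 138 CPM in KO, a log2 fold change of 5.97 ± 1.24 (SE). KO LEC 2 lay within the WT range for both. Defa21 was 0.285, 5.54, 5.80 and 0.497 CPM in WT and 123, 5.25 and 77.4 CPM in KO, Defa22 was 0.285, 5.41, 7.76 and 0 CPM in WT and 147, 5.90 and 84.6 CPM in KO, and KO LEC 2 lay within the WT range here too. Defa17 was 12.5, 0, 0.0935 and 0.0994 CPM in WT and 51.0, 10.8 and 97.0 CPM in KO. For Defa17 a single WT library lay above the lowest KO library.

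Apart from Reg3g, the genes outside the family that had reads were less even in KO LECs than in KO IntSCs, by the SD relative to the mean. Lyz1 was 0.0951, 0.615, 0 and 0.0994 CPM in WT and 17.5, 0 and 13.7 CPM in KO. Reg3g was 3.99, 0, 0.0935 and 0.0994 CPM in WT and 31.8, 7.54 and 30.5 CPM in KO, a log2 fold change of 4.47 ± 2.08 (SE). Itln1 had no read in any WT LEC library and was 21.7, 3.93 and 46.8 CPM in KO, at least 302-fold higher against 3 reads over the WT group.

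Dmbt1 and Ang4 were read in KO LEC 3 alone among the KO LECs, at 26.7 and 4.28 CPM. Dmbt1 had no read in WT LECs (at least 113-fold higher in KO), and Ang4 had 1 (ratio of the pooled CPM 54.4, 95% counting interval 9.11 to 2214). Mmp7 had no read in WT LECs and was 2.14, 8.52 and 0 CPM in KO, at least 51.1-fold higher, so its highest library was KO LEC 2, where Lyz1, Dmbt1 and Ang4 had no read. Of the 6 genes, only Itln1 and Reg3g were read in all 3 KO LEC libraries.

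**Figure D3:**
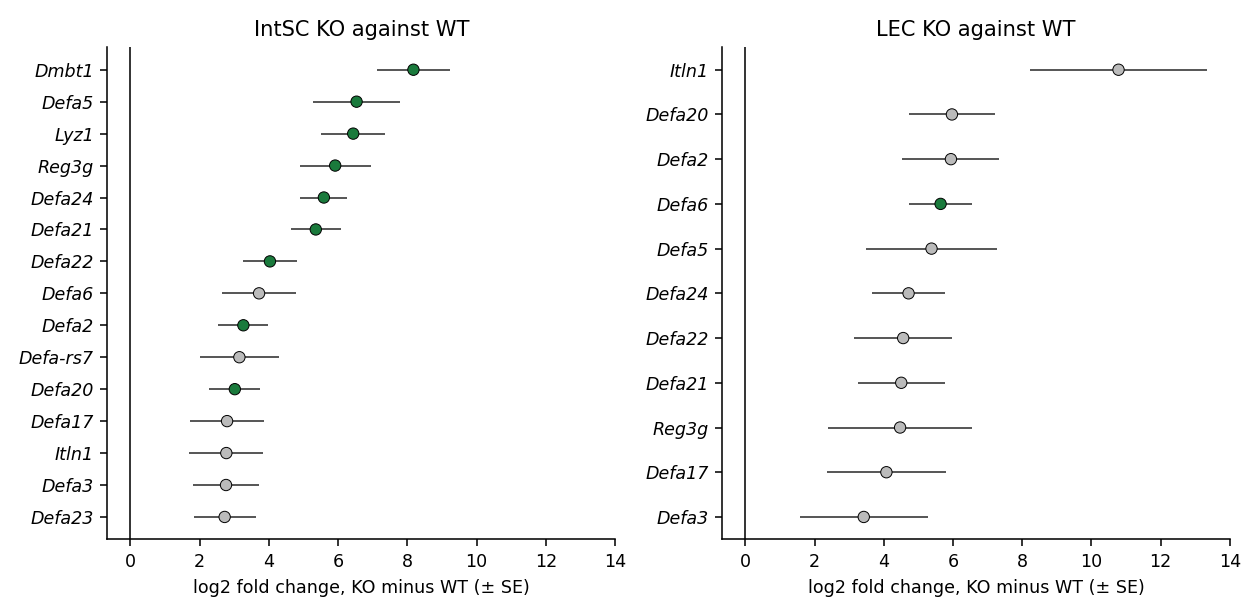
Log2 fold change of KO over WT with its SE for the tested genes described here, in IntSCs (left) and LECs (right); green points passed an adjusted p under 0.05 and grey points did not. All points lie above 0. Among the genes tested in both cell types the SEs are wider in LECs except for Defa6 (0.92 in LECs and 1.08 in IntSCs). In LECs Defa6 alone passed by edgeR.

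Which Defa symbols the reads fell on differed between libraries of the same genotype. Defa2 and Defa20 together took 16.2%, 19.96%, 16.5%, 21.1% and 2.34% of the Defa reads in KO IntSC libraries 1 to 5 and 27.3%, 2.45% and 20.9% in KO LEC libraries 1 to 3. The 95% Wilson intervals of the low values were 1.87% to 2.92% (75 of 3204 reads) and 1.64% to 3.64% (23 of 940 reads), and the lowest bound among the other 6 KO libraries was 15.1%. KO IntSC 5 and KO LEC 2 thus had about the same low share and stood apart from the rest. In KO IntSC 5 Defa3 and Defa17 took the highest share of the KO IntSCs, 26.2%, with Defa6 at 36.6%. In KO LEC 2 Defa6 took 42.3% and Defa3 and Defa17 18.1%, the highest shares of the KO LECs as well.

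Within the KO groups other ratios were steadier. Defa6 had between 2.08 and 3.15 times the reads of Defa24 over the 5 KO IntSC libraries and between 1.79 and 2.44 times over the 3 KO LEC libraries. Defa21 had 0.80 to 1.55 times the reads of Defa22 in KO IntSCs and 0.838 to 0.914 times in KO LECs. In WT libraries the Defa reads were few (32 to 720), and Defa2 and Defa20 took 7.32% to 62.5% of them in WT IntSCs, a wide spread, and 8.62% to 12.5% in WT LECs. Set against the summed Defa count, Lyz1 had 2.95 to 6.32 reads per 100 Defa reads in KO IntSCs and 0 to 1.44 in KO LECs, and Itln1 1.41 to 7.37 and 1.78 to 3.83. Dmbt1 had 1.43 to 13.0 per 100 in KO IntSCs, where library 5 held the highest value, and 0 in KO LEC 1 and 2.

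**Figure D4:**
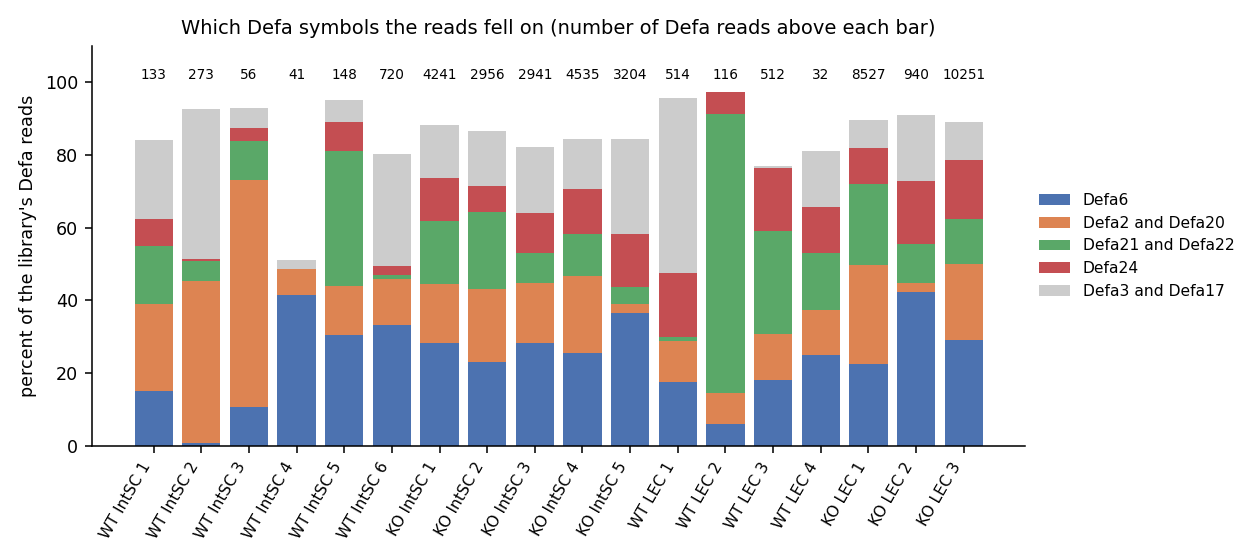
Percent of each library's Defa reads that fell on Defa6 and on 4 other single or paired symbols; the space above a bar is the remaining Defa symbols, and the number over it is the library's count of Defa reads. KO IntSC 5 and KO LEC 2 have thin Defa2 and Defa20 segments (2.34% and 2.45%) beside 16.2% or more in the other KO libraries.

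The cell types were compared within a genotype, contrasts that were not used to choose the genes but that share their libraries with the contrasts above. In WT mice 6 of the 25 genes had enough reads (Defa2, Defa3, Defa6, Defa20, Defa22 and Defa24). None passed the threshold, where 22.6% of the 12203 genes tested passed, and 0 had an unadjusted p under 0.05 by edgeR, where 32.5% of all did. DESeq2 also called 0. The log2 fold change of LECs over IntSCs was -1.15 ± 1.39 for Defa6 (SE, edgeR adjusted p = 0.640, 95% interval -3.88 to 1.58) and 1.94 ± 1.48 for Defa24 (SE, edgeR adjusted p = 0.415, 95% interval -0.96 to 4.84). Both intervals span several log2 units and include 0, so a difference was not detectable at these counts. With all 4 groups in one fit, 3 genes were called, among them Defa23 and Itln1, both lower in WT LECs.

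In KO mice 18 of the 25 genes had enough reads, and again 0 passed the threshold, where 25.9% of the 12758 genes tested passed, and 0 had an unadjusted p under 0.05 by edgeR, where 37.1% of all did. DESeq2 called 0 and gave Dmbt1 no p. The log2 fold change of LECs over IntSCs was 0.73 ± 0.53 for Defa6 (SE, edgeR adjusted p = 0.378, 95% interval -0.30 to 1.76), 1.02 ± 0.62 for Defa24 (SE, edgeR adjusted p = 0.278, 95% interval -0.19 to 2.23) and -1.05 ± 1.23 for Lyz1 (SE, edgeR adjusted p = 0.617, 95% interval -3.45 to 1.36). Of the 18, 12 had a log2 fold change above 0, with a median of 0.85 against -0.21 over all genes tested. Without KO LEC 2, 3 genes were called, all higher in LECs (Defa6, Defa22 and Defa24), and without KO LEC 3, 1 was, Dmbt1, lower in LECs. The comparison thus rested on 3 KO LEC libraries that differ widely.

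Other Paneth cell genes were examined as a list of 31, of which 29 symbols were in the tables. It held 11 further alpha-defensin genes under Gm and AY symbols. These 11 summed to 2.99, 25.3, 5.39, 2.01, 11.7 and 79.9 CPM in WT IntSCs, 237, 123, 147, 251 and 121 CPM in KO IntSCs, 11.0, 11.2, 7.48 and 0.994 CPM in WT LECs and 556, 15.6 and 467 CPM in KO LECs. They followed the Defa symbols, with WT IntSC 6 the highest WT library and KO LEC 2 the lowest KO library. Of the 29 genes, 16 were tested in IntSCs, and 4 passed the threshold as higher and 0 as lower: AY761184, Gm15308, Gm7849 and Gm15315, all alpha-defensins, with log2 fold changes from 2.79 to 5.70. In LECs 13 were tested and 0 passed by edgeR (8 at an unadjusted p under 0.05, 7 by DESeq2). The 4 genes of the list with the most reads were Xbp1, a transcription factor of secretory cells, Ephb3, a receptor that positions Paneth cells, Nupr1 and Cd24a. Each of these is also made outside Paneth cells. Their log2 fold changes in IntSCs were 0.16 ± 0.25, -0.16 ± 0.21, -0.12 ± 0.21 and 0.43 ± 0.84 (SE), and none passed. The median of the 16 was 1.20, and 11 of them had a log2 fold change above 0, as did 9 of the 13 tested in LECs. Spink4 had 1.97 ± 1.62 in IntSCs and 7.84 ± 2.52 in LECs (SE), where DESeq2 called it and edgeR did not. Mptx2 was not tested between genotypes. It was 0 to 0.621 CPM in WT IntSCs, 0.403 to 12.6 CPM in KO IntSCs, 0 in WT LECs and 0 to 13.0 CPM in KO LECs.

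Of 27 other antimicrobial genes, 9 were tested in IntSCs, and 1 passed as higher and 1 as lower. Reg3b, a lectin encoded beside Reg3g, was 0 to 4.48 CPM in WT and 17.8 to 62.3 CPM in KO IntSCs, a log2 fold change of 5.35 ± 1.16 (SE) that passed by edgeR and not by DESeq2. Ang, a ribonuclease of the family of Ang4, had a log2 fold change of -3.14 ± 0.65 (SE) in IntSCs and of -7.67 ± 1.26 (SE) in LECs, where 8 genes of the list were tested and it alone passed by edgeR (5 at an unadjusted p under 0.05, and 3 by DESeq2, Ang, Saa3 and Slpi). Lcn2, an iron-carrier-binding protein of epithelium and neutrophils and the gene of the list with the most reads, was not past the threshold, at 1.73 ± 1.23 (SE) in IntSCs and 0.60 ± 0.24 (SE) in LECs. Saa3, Slpi and Pigr, the next by reads, did not pass by edgeR in either cell type. Lyz2, the lysozyme of macrophages, was at most 2.73 CPM in any library.

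Markers of the epithelium were read beside the Paneth cell genes. The 16 pan-epithelial genes summed to 5.85 to 175 CPM in WT IntSCs, 66.2 to 192 CPM in KO IntSCs, 58.8 to 193 CPM in WT LECs and 145 to 254 CPM in KO LECs, with medians of 27.7, 138, 105 and 222 CPM. Cldn4 had the most reads of the list, a mean of 32.3 CPM over the 18 libraries. Its log2 fold change of LECs over IntSCs was 8.75 ± 0.79 in WT and 5.72 ± 0.73 in KO (SE). The sums therefore do not compare epithelial material between LECs and IntSCs. The genotypes overlapped through WT IntSC 6 (175 CPM) and WT LEC 4 (193 CPM), and every other WT library lay below every KO library of its cell type. Of the genes tested, 9 of 10 had a log2 fold change above 0 in IntSCs (median 1.51) and 5 of 6 in LECs (median 1.49). In IntSCs 1 of the 10 passed by edgeR (2 by DESeq2, Krt8 and Krt19), Krt19, a keratin, which was at 0 in all 6 WT libraries and 2.09 to 42.3 CPM in KO. In LECs 6 were tested and 0 passed by edgeR (1 at an unadjusted p under 0.05, 0 by DESeq2). Epcam, the surface protein used for the bead depletion, was at 0 in 4 of 6 WT IntSC libraries and reached 19.0 CPM in WT IntSC 6, and was 0.134 to 15.9 CPM in KO IntSCs, 0 to 0.19 CPM in WT LECs and 0 to 27.6 CPM in KO LECs. The 14 enterocyte markers summed to 7.46 to 61.7 CPM in WT IntSCs and 33.2 to 87.9 CPM in KO IntSCs, and to 93.4 to 759 CPM in WT LECs and 37.5 to 169 CPM in KO LECs. For that list 2 of the 3 KO LEC libraries lay below every WT LEC library. None of the enterocyte genes passed the threshold by edgeR, of 7 tested in IntSCs (0 at an unadjusted p under 0.05, 0 by DESeq2) and 6 in LECs (1 at an unadjusted p under 0.05, and 1, Apoa1, by DESeq2).

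The 8 goblet cell markers summed to 0.26 to 95.2 CPM in WT IntSCs, with WT IntSC 6 the highest, and 25.1 to 61.0 CPM in KO IntSCs, with medians of 1.34 and 49.5 CPM. The other 5 WT IntSC libraries held 0.26 to 10.2 CPM and lay below every KO IntSC library, and all 3 goblet genes tested there had a log2 fold change above 0 (median 4.12). The goblet list summed to 0 to 34.5 CPM in WT LECs and 1.71 to 88.0 CPM in KO LECs. None passed the threshold by edgeR, of 3 tested in IntSCs (2 at an unadjusted p under 0.05) and 1 in LECs (1 at an unadjusted p under 0.05), and DESeq2 called Tff3, a goblet cell peptide, in both. Muc2, the main gel-forming mucin, was 0 to 2.28 CPM in WT IntSCs and 0 to 15.1 CPM in KO IntSCs. The crypt stem cell marker Olfm4 was at 0 in all 18 libraries, and of 3 crypt genes tested in IntSCs Smoc2, which fibroblasts also make, passed as higher (0.90 ± 0.20, SE). The 8 enteroendocrine markers summed to at most 9.94 CPM in any library. The 5 tuft cell markers summed to 19.995 to 92.4 CPM in KO IntSCs and 64.3 to 147 CPM in WT IntSCs, most of it Dclk1. The 12 leukocyte markers summed to 38.8 to 120 CPM in WT IntSCs and 45.0 to 127 CPM in KO IntSCs, and to 231 to 521 CPM in WT LECs and 113 to 159 CPM in KO LECs, where every KO library lay below every WT library. Of the 5 leukocyte genes tested in LECs 0 passed by edgeR (2 at an unadjusted p under 0.05, and 2 by DESeq2, H2-Aa and Jchain). The 8 neutrophil markers summed to at most 12.5 CPM in any library. The 11 lymphatic endothelial markers summed to 371 to 573 CPM in WT IntSCs and 609 to 800 CPM in KO IntSCs, every KO library above every WT library. Of the 10 tested there 0 passed by edgeR (1 at an unadjusted p under 0.05, and 1 by DESeq2, Pecam1). Among the 4 with the most reads, Ccl21a, Lyve1 and Reln had log2 fold changes of -0.51 ± 0.52, -0.02 ± 1.06 and -0.70 ± 1.34 (SE). Flt4 had 1.29 ± 0.84 (SE). Lyve1 and Flt4 had medians of 1.91 and 4.71 CPM in WT IntSCs and 3.81 and 5.71 CPM in KO IntSCs, a small part of the sum. The 8 crypt stem and progenitor markers summed to 108 to 162 CPM in WT IntSCs and 193 to 322 CPM in KO IntSCs, again without overlap. Most of that sum was Smoc2, with a mean of 102 CPM over the 18 libraries, and Prom1 was next with 12.1 CPM. In LECs the list summed to 1.60 to 23.7 CPM in WT and 0.855 to 11.4 CPM in KO. The part of these cell types in the Defa and other antimicrobial gene results was not tested.

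**Figure D5:**
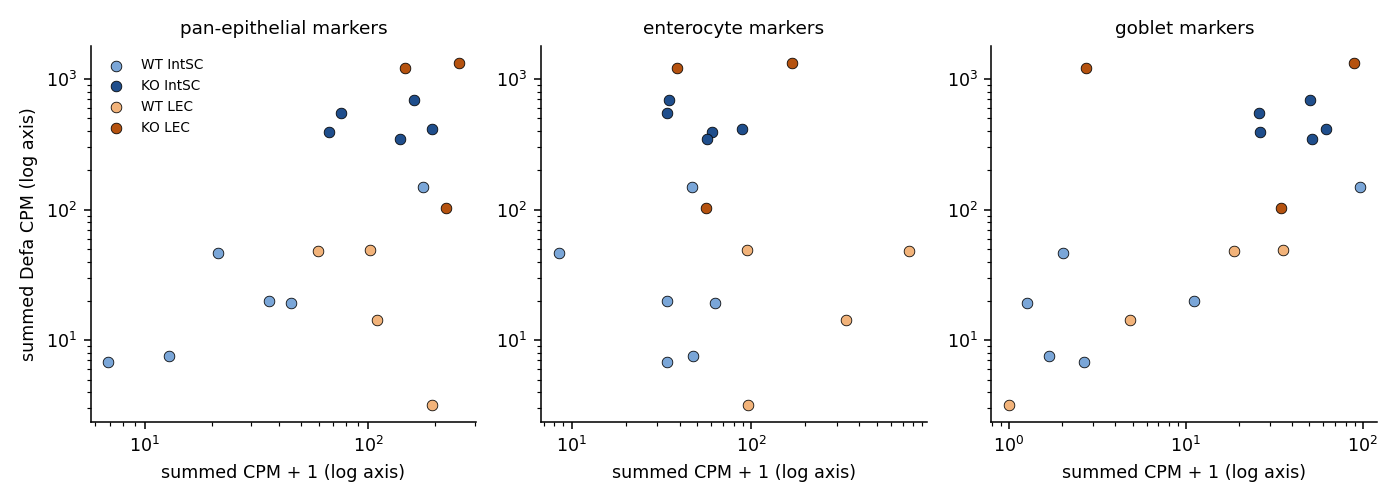
Summed Defa CPM of each library against the summed CPM of the pan-epithelial, enterocyte and goblet marker lists (1 is added to the marker sums so that 0 can be drawn), on log axes; each point is 1 library, coloured by group. WT IntSC 6 lay at 175 CPM of pan-epithelial markers and 149 CPM of Defa, among the marker levels of the KO IntSCs (66.2 to 192 CPM), and the other WT IntSCs lay at 44.0 CPM of these markers or less. In LECs, WT LEC 4 lay at 193 CPM of these markers and 3.18 CPM of Defa, and KO LEC 2 at 222 CPM and 103 CPM.

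The regions before the transcription starts are shown because the members that moved together could be set side by side. RefSeq (GRCm38.p6) listed 11 such regions for the 25 genes, Mmp7 having 2. The 100 bases before the start are printed 5′ to 3′ on the gene's strand for 4 of them, with capitals for TATAAA, the core of the TATA box.
Defa2: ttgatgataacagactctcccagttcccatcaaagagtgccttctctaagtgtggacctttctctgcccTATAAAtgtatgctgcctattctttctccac
Defa21: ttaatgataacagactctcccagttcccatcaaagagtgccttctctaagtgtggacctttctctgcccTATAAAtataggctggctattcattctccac
Defa23: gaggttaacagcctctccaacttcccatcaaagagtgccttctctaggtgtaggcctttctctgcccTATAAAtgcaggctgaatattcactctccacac
Reg3g: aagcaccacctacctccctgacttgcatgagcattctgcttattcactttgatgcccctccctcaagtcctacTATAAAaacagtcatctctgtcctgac
They stand at chr8:21378417-21378516, chr8:21025445-21025544 and chr8:21054940-21055039, all on the plus strand, and at chr6:78468875-78468974 on the minus strand. Over the 300 bases of the table, 250 before and 50 after the start, Defa20 was 100% identical to Defa2 and Defa22 to Defa21, Defa2 and Defa21 were 97.7% identical, and Defa23 was 81.9% identical to Defa21. TATAAA, or TTTATA on the other strand, was in 7 of the 11 regions and in 13.6% of all 32851 regions of that length. CTTTG, the core of the motif read by TCF and LEF factors of the Wnt pathway, or CAAAG on the other strand, was in 11 of the 11 and in 53.9% of all. A match to letters is a description and not a bound site.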

How the data were processed

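RNA was measured with a 3′ kit (QuantSeq) in 18 libraries of sorted cells. Each deposited file held the raw read counts of 1 library, whole numbers per gene symbol that the authors had not normalised. The study's methods name TopHat and Cufflinks, and the submitters' processing notes name Bowtie2, edgeR and mm10. The counting program, its annotation and its handling of reads that fit several genes are not given in the sources used here. Each table held 23282 rows and 23238 symbols, and the 35 symbols on more than 1 row were summed.

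Samples were grouped and numbered by their titles. The genes, the gene lists and the alternatives were chosen with earlier results of these data known. CPM per library used TMM factors over all 18 libraries. Each comparison was fitted on the 2 groups compared, with edgeR 4.0.16 in R 4.3.3 (filterByExpr, TMM, robust glmQLFit and glmQLFTest, Benjamini-Hochberg adjustment over all genes tested, threshold 0.05). SEs came from the F statistic of that test, and 95% intervals are normal intervals from them. Ratios of pooled CPM carry exact counting intervals, shares carry Wilson intervals, and the floor is 3 reads. All of them cover counting error only, since reads without molecular identifiers are not independent molecules. Genes given in full were the 7 outside the family, the 6 Defa symbols with the highest mean CPM and any other Defa symbol past the threshold, except 1 that is not reported here and enters only the counts, medians and sums. From each other list the 4 genes with the most reads and Krt19, Epcam and Muc2 could be named. Reg3b, Ang, Smoc2, Olfm4, Lyz2, Krt8, Pecam1, Spink4, Mptx2 and the 4 alpha-defensins of the Paneth cell list were named after their values were seen. Transcript sequences and coordinates are from GENCODE vM21 (GRCm38), matched by symbol for 14 of 18 Defa symbols and all 7 others, and start regions from RefSeq (GRCm38.p6). The procedure was tested on simulated data. Alternatives were DESeq2 1.42.0, other size factors, no filter beyond 1 read, the replicate number as a block, all 4 groups in one fit, the Defa rows summed to 1, and each library left out in turn.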

Additional observations from a re-analysis of the deposited data

Results flagged for a closer look

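A library was set apart where its gap to the nearest other library of its group was large for the group's range (Dixon's test at 95%). Of 53 groups of values tested, 14 had such a library. Chance alone would give about 2.65 only if the values were normally distributed and the groups independent. Some groups held several libraries with no read, and sums were tested beside the genes they contain. That rate therefore does not apply here, and the 14 are listed as a description. No explanation was tested for any of the libraries set apart.

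KO IntSC 5 stood apart from the other KO IntSCs in 6 measures. Reg3g was 59.7 CPM there and 11.0 to 24.5 CPM in the other 4, Dmbt1 was 53.9 CPM and 8.75 to 15.0 CPM, and the sum of the 7 genes outside the Defa family was 169 CPM and 52.2 to 71.5 CPM. Defa2 and Defa20 took 2.34% of its Defa reads and 16.2% to 21.1% in the others. Per 100 Defa reads it had 7.37 reads of Itln1 and 13.0 of Dmbt1, where the others had 1.41 to 2.48 and 1.43 to 4.28.

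WT IntSC 6 had the most Defa reads among the WT IntSCs, with 149 CPM summed against 6.85 to 46.3 CPM, and 49.7 CPM of Defa6 against 0.339 to 5.84 CPM. WT IntSC 5 had 6.62 CPM of Defa22, where the others had 0 to 2.09 CPM. WT IntSC 1 had 2.09 CPM of Reg3g, where the others had 0 to 0.269 CPM, and 10.5 Reg3g reads per 100 Defa reads, where the others had 0 to 3.57.

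WT LEC 1 had 3.99 CPM of Reg3g, with 0 to 0.0994 CPM in the other WT LECs, and 12.5 CPM of Defa17, with 0 to 0.0994 CPM in the others. The sum of the 7 genes outside the family was 4.09 CPM there and 0.0935 to 0.738 CPM in the others. Groups of 3, such as the KO LECs, were not tested in this way.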

How the results depend on the processing

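Of the 25 genes, 10 were called in IntSCs, with 13 under DESeq2, 10 under RLE and upper-quartile factors and 9 with no filter beyond 1 read. All 4 groups in one fit called 3, and with the Defa rows summed to 1 it was also 3 (Dmbt1, Lyz1 and Reg3g), since the Defa rows became 1 feature, which did not pass. Over the libraries left out it ran from 7 (without KO IntSC 1) to 14 (without WT IntSC 6). In LECs 1 was called, with 8 under DESeq2, 9 with all 4 groups in one fit, 0 with no filter beyond 1 read, 0 with the Defa rows summed, and 0 to 3 over the libraries left out. Between the cell types, 0 were called in WT and 3 with all 4 groups in one fit (0 to 0 over the libraries left out), and 0 in KO (0 to 3).

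Over all genes, the 183 called in IntSCs became 376 under DESeq2 and 27 with all 4 groups (99 to 186 over the libraries left out), and the 7 in LECs became 309, 538, 32 with no filter beyond 1 read and 3 with the replicate block (0 to 16). The 2763 between WT cell types became 1596 with the replicate block (2233 to 2889), and the 3302 between KO cell types became 895 (2557 to 3320). Beyond these constructions the cause was not tested.

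Deviations of same-numbered libraries correlated weakly, at -0.0504 to 0.0809 in the IntSC comparison and -0.00933 to 0.0169 in the LEC comparison. They correlated at 0.0292 to 0.0390 between WT cell types (mean 0.0327, against -0.00654 for other pairs) and -0.0216 to 0.0412 between KO cell types. The libraries with Xist above 100 CPM were numbers 1 and 2 in WT IntSCs, KO IntSCs and WT LECs, and number 1 in KO LECs. The replicate number thus went with Xist in part, and what it stands for was not tested. With the replicate block 10 of the 25 were called in IntSCs, 6 of them also called without it, 1 in LECs, and 0 in both other comparisons.

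No named gene changed direction between genotypes under any alternative. Between WT cell types, Defa6 (-1.15) turned to 1.19 with the replicate block and ran from -1.63 to 0.87 over the libraries left out, 0.87 being without WT IntSC 6. Between KO cell types (log2 fold changes), Reg3g (-0.20) was 0.02 with the block and -0.51 to 0.40 over the libraries left out, turning without KO IntSC 5 and, at 0.22, without KO LEC 2. Itln1 (0.72) ran from -0.18 without KO LEC 3 to 1.24, and Defa17 (0.15) was -0.003 with the block and ran from -0.61 without KO LEC 3 to 0.63. Plain library sizes moved the mean of either sum by less than 1 SD in all 4 groups. Depth limited the WT libraries most, where the 25 genes had few reads.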
